A study of Rattus norvegicus with 4 samples.

Results

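The genes described here are 40 rat genes of the defence against oxidants and electrophiles: the transcription factor NRF2 (gene Nfe2l2) and its partners, the glutathione and thioredoxin systems, the enzymes that remove superoxide and peroxides, the enzymes that supply NADPH, and the enzymes that conjugate or reduce reactive compounds. The members were a list of gene symbols, matched to array probes through the RefSeq accession of each probe. All 40 were on the array, out of 16506 named genes measured. The rule for members used no measured value, but the list was drawn up with earlier results of these data known.

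The cells were NR8383, an established line of rat alveolar macrophages that was started from lavage of a normal rat lung and grows partly attached and partly floating. The series holds 1 group: NR8383 cells after 20 passages, kept for 4 h in DMEM with 10% fetal bovine serum, with no other treatment named. Sample titles call this a control and also carry the abbreviation ALI, whose meaning no label gives. Before that the cells had been grown with 15% serum and antibiotics, and seeded for 48 h in flasks of 25 cm2. Total RNA from 4 biological replicates was labelled with Cy3 and hybridised to 4 one-colour Agilent arrays on 1 slide, called replicates 1 to 4. With a single cell line in a single condition there was no comparison between treatments, so the data show which defence genes were measurable and how far the replicates differed.

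In resting cells KEAP1 binds NRF2 in the cytoplasm and, with the ubiquitin ligase CUL3, sends it to degradation. Oxidants and electrophiles modify KEAP1, NRF2 accumulates, pairs with a small MAF protein in the nucleus and binds antioxidant response elements, while BACH1 competes for the same sites and represses. Among the known targets are genes for glutathione synthesis, for thioredoxin recycling and for the NADPH that both systems consume. Alveolar macrophages meet inhaled oxidants and make superoxide themselves, which is why these genes are often followed in them.

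Since NRF2 acts through a short DNA element, the promoters of the members were searched for the core of that element, TGACNNNGC, and for the AP-1 site TGANTCA, whose letters can lie inside it. Both strands were read in windows of 300 bases, from 250 before to 50 after each annotated start, in RefSeq sequence of the GRCr8 build. Windows were found for 37 of the 40 members, 41 in all, because some genes have several starts. The core stood in 10 of these 41 windows (24.4%), each of a different gene, and in 12.1% of all 33469 windows of rat genes. The AP-1 site stood in 8 of the 41 (19.5%) and in 7.33% of all windows. In Prdx1, Me1, Gstp1 and Ephx1 an AP-1 match overlapped the core. A match of letters is a description of the sequence and does not show that a factor binds there. A window with no match does not show that the gene lacks the element, because only these 300 bases were read.

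The cores of 6 members that lie before the start are printed to show the element whose letters were counted. They are the first 6 in the order of the list. Each line runs 5′ to 3′ in the direction of the gene, with up to 30 bases on either side, and the capitals mark the core. A core on the opposite strand reads as its reverse complement.
Gclm: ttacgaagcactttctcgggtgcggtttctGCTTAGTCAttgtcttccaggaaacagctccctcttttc
Txnrd1: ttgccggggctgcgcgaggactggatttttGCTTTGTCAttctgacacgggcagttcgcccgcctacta
Prdx1: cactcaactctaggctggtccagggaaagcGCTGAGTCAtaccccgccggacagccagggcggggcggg
Me1: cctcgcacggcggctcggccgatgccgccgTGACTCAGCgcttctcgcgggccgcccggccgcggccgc
Sod2: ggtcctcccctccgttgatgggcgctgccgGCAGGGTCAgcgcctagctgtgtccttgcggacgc
Gstp1: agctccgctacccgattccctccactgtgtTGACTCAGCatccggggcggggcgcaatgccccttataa

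These stretches lie in GRCr8 at chr2:213031933-213032001 on the plus strand for Gclm, and at chr7:22755944-22756012 on the minus strand for 1 of the 2 starts of Txnrd1. That of Prdx1 is at chr5:135383741-135383809 on the plus strand, and that of Me1 at chr8:96540373-96540441 on the minus strand. For Sod2 it is chr1:50050169-50050233 and for Gstp1 chr1:210769728-210769796, both on the minus strand. Counted from the annotated start, the core of Gstp1 ended at base -53 and that of Gclm at base -164. The other 4 members with a core were Nfe2l2, Prdx4, Prdx5 and Ephx1. In Nfe2l2 and Prdx4 it lay after the start, and in Prdx5 it spanned the start.

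A gene was called detected when, for at least 1 of its probes, most spots were flagged well above background by the scanner software on each of the 4 arrays. Its level is the log2 processed signal minus the 75th percentile of that array's probes, so a level of 0 is the brightness of that percentile, and the mean of the detected probes was taken. Probes differ in how brightly they hybridise, so levels are compared between arrays within a gene and never between genes. The share of rat spots well above background was lowest on replicate 1, at 50.9%, and reached 58.9% on replicate 4. Replicate 1 was also the dimmest array, with a 75th percentile of processed signal of 83.4, where the others had 112, 126 and 167. All 11 macrophage markers on the array were detected, among them Cd68, Csf1r, Spi1 and Lyz2. Of 42 markers of other cell types on the array, 13 (31.0%) were detected: Ager and Foxj1 of lung epithelium, Col1a2 and Dcn of fibroblasts, Pecam1, Cdh5 and Vwf of endothelium, Cd3d and Nkg7 of lymphocytes, Camp of neutrophils, and Hba-a1, Epor and Klf1 of the erythroid lineage. None of 5 hepatocyte markers was detected.

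Most of the defence genes were measurable in this condition. Of the 40 members, 35 (87.5%) were well above background on all 4 arrays, where the share over all named genes was 53.1%. Only 2 members (5%) were above it on no array, Gclm and Gpx3, against 34.4% of all named genes. Bach1, Osgin1 and Gstm1 were above background on some arrays. A call on at least 3 arrays took in 37 members, beside 57.3% of all named genes. The positive-and-significant flag took in 38, beside 66.9% of all. The limma test against the negative controls took in 38 as well, beside 69.3% of all. The thioredoxin system, the peroxiredoxins and the NADPH enzymes were detected in full, with 5 of 5, 6 of 6 and 4 of 4 members.

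**Figure D1:**
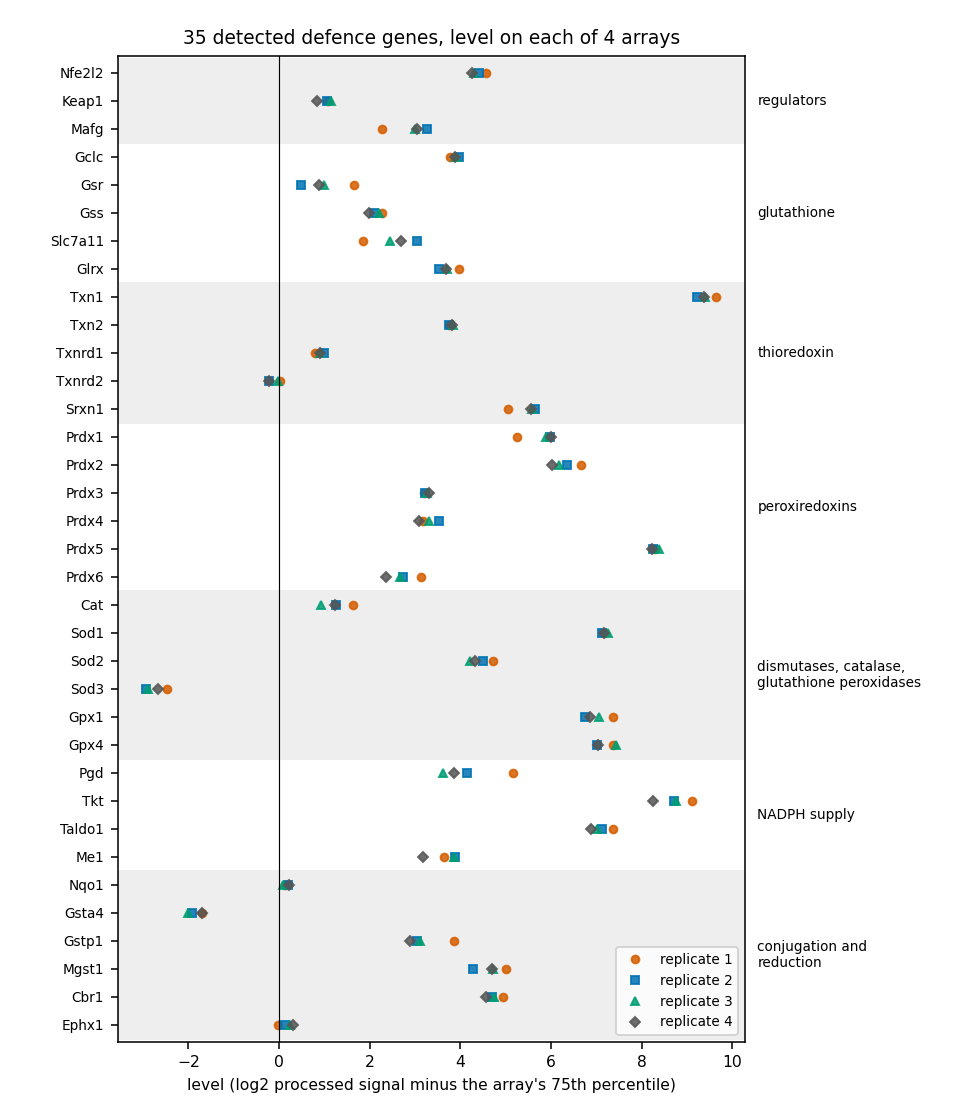
Level of each of the 35 detected defence genes on the 4 arrays (log2 processed signal minus the 75th percentile of the array), grouped by role, with 1 symbol per replicate. Replicate 1 lies apart from replicates 2 to 4 in genes such as Pgd, Gsr and Gstp1 (above) and Slc7a11, Mafg and Prdx1 (below), while Sod1, Prdx3 and Nqo1 have their 4 symbols close together on this scale.

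Of the regulators, Nfe2l2 itself was transcribed at log2 levels of 4.56, 4.42, 4.29 and 4.26 on replicates 1 to 4. Replicate 1 was highest, by a log2 difference of 0.23 from the mean of the other 3 arrays. Keap1, which encodes the sensor that holds NRF2, had log2 levels of 1.08, 1.06, 1.14 and 0.83, with replicate 4 lowest and replicate 1 inside the range of the others, though below it under normexp (log2 difference -0.28). Mafg encodes a small MAF partner, and its log2 levels were 2.26, 3.26, 3.01 and 3.03. Replicate 1 was thus lowest, at 0.56 times the mean of the others (log2 difference -0.84). It was below the range of the others in 32.8% of all detected genes.

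Bach1, the repressor, was not detected by the call on all 4 arrays. Its brighter probe had processed signals of 4.52, 32.2, 35.4 and 41.3 on replicates 1 to 4, and its other probe 5.51, 13.0, 13.6 and 21.3. Both probes were dimmest on replicate 1, where neither was well above background, and the brighter one was well above it on the other 3 arrays. A limma test over all 4 arrays against the 95th percentile of the negative controls (between 3.20 and 3.68 in processed signal) put Bach1 above that level at an adjusted p of 0.000611. Among other genes of the same circuit, 7 of 10 on the array were detected, and Bach2 was above background on no array. Maff, another small MAF, had log2 levels of 0.04, 1.75, 1.08 and 1.19, with replicate 1 lowest. Cul3, the ligase subunit that works with KEAP1, had log2 levels of 1.17, 2.29, 2.19 and 2.36. Here too replicate 1 stood below the others, by 1.11 on the log2 scale, from 1 detected probe of 2. The small MAF gene Mafk had log2 levels of -1.06, -0.62, -1.56 and -2.43, and its spot lies in an area of the slide where many probes were far dimmer on replicate 4.

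Glutathione is made from cysteine, glutamate and glycine, and the uptake of cystine often limits it. Slc7a11, the cystine transporter subunit and a known NRF2 target, had log2 levels of 1.84, 3.05, 2.45 and 2.70. Replicate 1 was lowest, at 0.54 times the mean of the others, and replicate 2 was highest. Its 2 probes did not differ by the same amount: replicate 1 lay 1.44 below the others on the log2 scale by one probe, and 0.34 below by the other, where replicate 3 was as low. The partner chain Slc3a2 was also lowest on replicate 1, with log2 levels of 4.43, 5.08, 5.19 and 5.11.

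Gclc, the catalytic subunit of the rate-limiting enzyme glutamate-cysteine ligase, had steady log2 levels of 3.78, 3.97, 3.90 and 3.87 (mean 3.88 ± 0.08, SD, n = 4). Its modifier subunit Gclm, whose promoter core is printed above, gave processed signals of 3.25, 5.34, 2.82 and 8.73. They were at or below the 95th percentile of the negative controls on replicates 1 and 3 and above it on replicates 2 and 4. No array was well above background, and limma's adjusted p against that percentile was 0.125. The software's weaker flag, positive and significant over local background, was set for Gclm on replicates 2 and 4. So the catalytic subunit was measured on every array and the modifier by its single probe on none, which does not show that its transcript was absent.

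**Figure D2:**
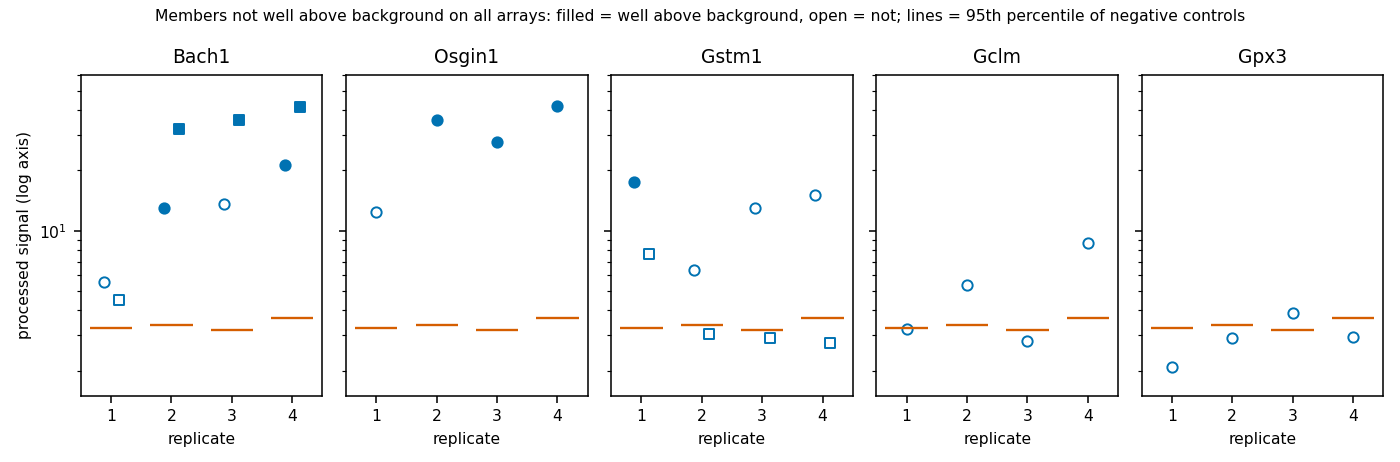
Processed signal on a log axis, by replicate, of the 7 probes of the 5 defence genes that were not well above background on all 4 arrays, with filled symbols where the probe was well above background and the 95th percentile of negative control spots drawn for each array. Circles and squares are different probes of a gene. Gclm and Gpx3 have open symbols throughout, whereas Bach1 and Osgin1 have filled symbols on replicates 2 to 4 or on some of them and open symbols on replicate 1.

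Gss, glutathione synthetase, catalyses the last step of synthesis and had log2 levels of 2.28, 2.10, 2.20 and 1.98. Gsr, the reductase that returns oxidised glutathione to its reduced form with NADPH, had log2 levels of 1.64, 0.49, 1.0 and 0.88. Replicate 1 was highest, 1.81 times the mean of the others, and replicate 2 lowest. The log2 difference of replicate 1 in Gsr was 0.85, and 0.31 under normexp. Glrx, a glutaredoxin that removes glutathione from proteins, had log2 levels of 3.98, 3.53, 3.69 and 3.68, with replicate 1 again above the rest. Within this group replicate 1 was therefore above the other arrays in 3 of 5 detected members (Gss, Gsr and Glrx), beside 42.3% of all detected genes. It was below them in 2 (Slc7a11 and Gclc), beside 32.8% of all. Of 13 further genes of glutathione metabolism on the array, 10 were detected, and Ggt1 and Ggt5, which encode gamma-glutamyl transferases at the cell surface, were above background on no array.

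Thioredoxin reduces disulfides in proteins and is itself reduced by thioredoxin reductase at the expense of NADPH. Txn1, the cytosolic thioredoxin, had log2 levels of 9.65, 9.22, 9.41 and 9.38. Its mitochondrial counterpart Txn2 had nearly equal log2 levels of 3.74, 3.75, 3.84 and 3.82 (SD 0.05, n = 4). Txnrd1, the cytosolic selenoprotein reductase, had log2 levels of 0.79, 1.0, 0.91 and 0.91. The 2 probes of Txnrd1 placed replicate 1 on opposite sides of the others, with log2 differences of -0.37 and 0.08, so its small difference depends on the probe, and under normexp replicate 1 was within the range of the others. Txnrd2, the mitochondrial reductase, had log2 levels of 0.03, -0.22, -0.03 and -0.23.

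Srxn1, sulfiredoxin, reactivates peroxiredoxins that have been overoxidised. Its log2 levels were 5.06, 5.64, 5.58 and 5.56. Replicates 2 to 4 lay between 5.56 and 5.64 and replicate 1 lay 0.53 below their mean on the log2 scale. Further genes of the thioredoxin system on the array, 10 in number, were all detected. Txnip, the inhibitor that binds thioredoxin, had log2 levels of 2.98, 2.08, 1.93 and 1.80, so replicate 1 was higher by 1.04 than the mean of the others on the log2 scale. Txndc9, a thioredoxin domain protein, had log2 levels of 2.88, 3.56, 3.44 and 3.46, with replicate 1 lowest. Msrb1, a selenoprotein that repairs oxidised methionine, was highest on replicate 1, with log2 levels of 4.62, 4.31, 4.29 and 4.28. Under normexp replicate 1 was within the range of the others for Msrb1 (log2 difference -0.01).

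Peroxiredoxins reduce hydrogen peroxide through a reactive cysteine, and most of them rely on thioredoxin. The 6 genes lay on both sides of the other arrays on replicate 1. Prdx1, the cytosolic and NRF2-responsive form, had log2 levels of 5.26, 5.99, 5.89 and 6.0, and replicate 1 was at 0.616 times the mean of the others. Prdx2, the other main cytosolic form, had log2 levels of 6.67, 6.36, 6.19 and 6.03, with replicate 1 highest, but under normexp background correction replicate 1 was below the others (log2 difference -0.17). Prdx6, which uses glutathione, was also highest on replicate 1, with log2 levels of 3.14, 2.73, 2.66 and 2.35. The log2 difference of replicate 1 in Prdx6 was 0.56, and 0.14 under normexp.

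The mitochondrial Prdx3 had log2 levels of 3.20, 3.21, 3.26 and 3.31, and under normexp replicate 1 lay lower, by a log2 difference of -0.34 from the others. Prdx5, found in several compartments, had log2 levels of 8.30, 8.26, 8.39 and 8.23 (SD 0.07, n = 4). In Prdx4, the form of the endoplasmic reticulum, the log2 levels were 3.17, 3.52, 3.31 and 3.09. Replicate 1 was inside the range of the other arrays for Prdx4 and Prdx5, but below it for both under normexp, quantile normalization and scaling over detected probes.

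Superoxide dismutases turn superoxide into hydrogen peroxide, which catalase and the glutathione peroxidases remove. Sod1, the cytosolic enzyme, had some of the most even values, at log2 levels of 7.17, 7.13, 7.25 and 7.16 (SD 0.05, n = 4). Sod2, the mitochondrial enzyme, had log2 levels of 4.71, 4.51, 4.22 and 4.33 and was highest on replicate 1, though within the range of the others under normexp. Sod3, the secreted enzyme, was detected but dim, with log2 levels of -2.48, -2.94, -2.89 and -2.67. The SD between single spots of its probe on an array was 0.43 on the log2 scale, and the SD between the means of the arrays 0.21.

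Cat, catalase, had log2 levels of 1.63, 1.25, 0.93 and 1.23. Gpx1, the main cytosolic glutathione peroxidase, had log2 levels of 7.38, 6.76, 7.06 and 6.87. Both were highest on replicate 1, and both probes of Gpx1 showed it, by log2 differences of 0.35 and 0.61. Gpx4, which reduces lipid hydroperoxides in membranes, had log2 levels of 7.36, 7.01, 7.43 and 7.04, so replicates 1 and 3 were above replicates 2 and 4. Gpx3, the plasma form, had processed signals of 2.08, 2.92, 3.89 and 2.95 and was well above background on no array (limma adjusted p = 0.9997 against the negative controls). Within this group replicate 1 was above the other arrays in 4 of 6 detected members, beside 42.3% of all detected genes, and below them in 0, beside 32.8%. Under normexp, where the shares of all detected genes were not counted, it was above in 3 and below in 1. The 8 further genes listed with this group were 5 glutathione peroxidases, the heme oxygenases Hmox1 and Hmox2, and Ccs, the copper chaperone of Sod1. Hmox1, Hmox2 and Ccs were detected, no further peroxidase was, and Gpx2 and Gpx5 were above background on no array. Hmox1, a widely used NRF2 and BACH1 target, had log2 levels of 5.83, 7.33, 7.21 and 7.19, so replicate 1 lay 1.42 below the mean of the others on the log2 scale.

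NADPH for both reductases comes largely from the pentose phosphate pathway and from malic enzyme. Pgd, phosphogluconate dehydrogenase, had log2 levels of 5.15, 4.14, 3.62 and 3.86 (mean 4.19 ± 0.67, SD, n = 4). Replicate 1 was highest, at 2.42 times the mean of the others. It was above the range of the others in 42.3% of all detected genes. The SD of Pgd stood at the 96.2 percentile of all detected genes. Its SD was the highest of the 35 detected members, but under normexp the largest log2 difference of an array was 0.79 in Pgd and higher in Mafg (0.99), Prdx1, Mgst1, Tkt and Slc7a11. Pgd was the only one of 35 detected members in which an array lay over 1 log2 unit from the mean of the other 3, a share of 2.86%, beside 8.14% of all detected genes.

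Taldo1, transaldolase, was also highest on replicate 1, with log2 levels of 7.37, 7.14, 7.02 and 6.87, but under normexp replicate 1 was within the range of the others. Tkt, transketolase, had log2 levels of 9.11, 8.72, 8.77 and 8.26, with replicate 1 highest and replicate 4 lowest. In Me1, malic enzyme, replicate 4 stood apart instead: the log2 levels were 3.65, 3.87, 3.87 and 3.18. All 10 further NADPH genes on the array were detected. Replicate 1 was above the other arrays in 9 of them, beside 42.3% of all detected genes, and below in 0, beside 32.8%, with a median log2 difference of 0.42. Under normexp, where the shares of all detected genes were not counted, it was above in 5 and below in 1. Nadk, the kinase that makes NADP, had log2 levels of 4.05, 3.73, 3.35 and 2.66 as the mean of 2 detected probes. A spot of Nadk lies in the dim area of replicate 4, and its 2 probes are not given singly here.

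Enzymes of conjugation and reduction act on electrophiles and quinones. Gstp1, the pi class glutathione transferase, had log2 levels of 3.86, 3.05, 3.11 and 2.89, and replicate 1 was 1.79 times the mean of the others. Its 2 probes gave nearly the same log2 difference, 0.85 and 0.83. Mgst1, the microsomal transferase, had log2 levels of 5.00, 4.27, 4.72 and 4.71, with replicate 1 highest and replicate 2 lowest.

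Cbr1, carbonyl reductase, had log2 levels of 4.95, 4.69, 4.75 and 4.57. Ephx1, the microsomal epoxide hydrolase, ran the other way, with log2 levels of -0.02, 0.13, 0.23 and 0.31 and replicate 1 lowest. Nqo1, the quinone reductase most often used as a readout of NRF2, had log2 levels of 0.12, 0.20, 0.09 and 0.23 (SD 0.06, n = 4), among the evenest of the set. Gsta4, which conjugates lipid aldehydes, was dim but detected, with log2 levels of -1.71, -1.91, -2.01 and -1.69, and replicate 1 within the range of the others.

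Osgin1, an oxidative stress response gene, had processed signals of 12.4, 35.7, 27.7 and 42 and was well above background on replicates 2 to 4 (limma adjusted p = 1.79e-05 against the negative controls). Gstm1, a mu class transferase, was the reverse: its brighter probe was well above background on replicate 1 alone, with processed signals of 17.4, 6.33, 13.0 and 15.0. The other Gstm1 probe gave 7.68, 3.05, 2.91 and 2.74 and was well above background on no array. In both probes of Gstm1, then, replicate 1 was brightest, although that array had the lowest 75th percentile of signal. Of 25 further genes of this group on the array 17 were detected, and Gsta3, Gstk1, Gstm5 and Gstt1 were above background on no array. Replicate 1 was above the other arrays in 14 of the 17, beside 42.3% of all detected genes, and below in 1, beside 32.8%. These counts were 11 and 2 under normexp, 11 and 1 under quantile normalization and 9 and 1 with the 75th percentile taken over detected probes. The shares of all detected genes were not counted under these alternatives. Gstt2, a theta class transferase named after its values were seen, had log2 levels of 0.58, -0.99, -0.95 and -1.24 from 1 detected probe of 3, and replicate 1 was 3.12 times the mean of the others.

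Across the 35 detected members replicate 1 was the array that stood apart, as it did over all detected genes. It was the farthest array from the mean of the other 3 in 22 members (62.9%), beside 54.7% of all detected genes. Replicate 1 lay above the range of the other arrays in 18 members (51.4%), beside 42.3% of all, and below it in 9 (25.7%), beside 32.8%. Counted against the mean of the others, replicate 1 was higher in 23 members, beside 55.8% of all detected genes, and lower in 12, beside 44.2%. The median log2 difference of replicate 1 from the others was 0.19 over the members (interquartile range -0.06 to 0.40) and 0.07 over all detected genes. Replicate 4 lay below the range of the others in 13 members (37.1%), beside 32.7% of all, and above it in 5, beside 15.8%. Its median log2 differences were -0.09 over the members and -0.07 over all detected genes. Replicate 2 lay above the others in 7 members and below in 8, beside 21.9% and 23.4% of all, with a median log2 difference of -0.04. For replicate 3 the counts were 5 and 5, beside 19.9% and 11.1%, and the median log2 difference was 0.01. A difference of RNA per cell and one of the share of cells cannot be told apart in such bulk RNA.

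**Figure D3:**
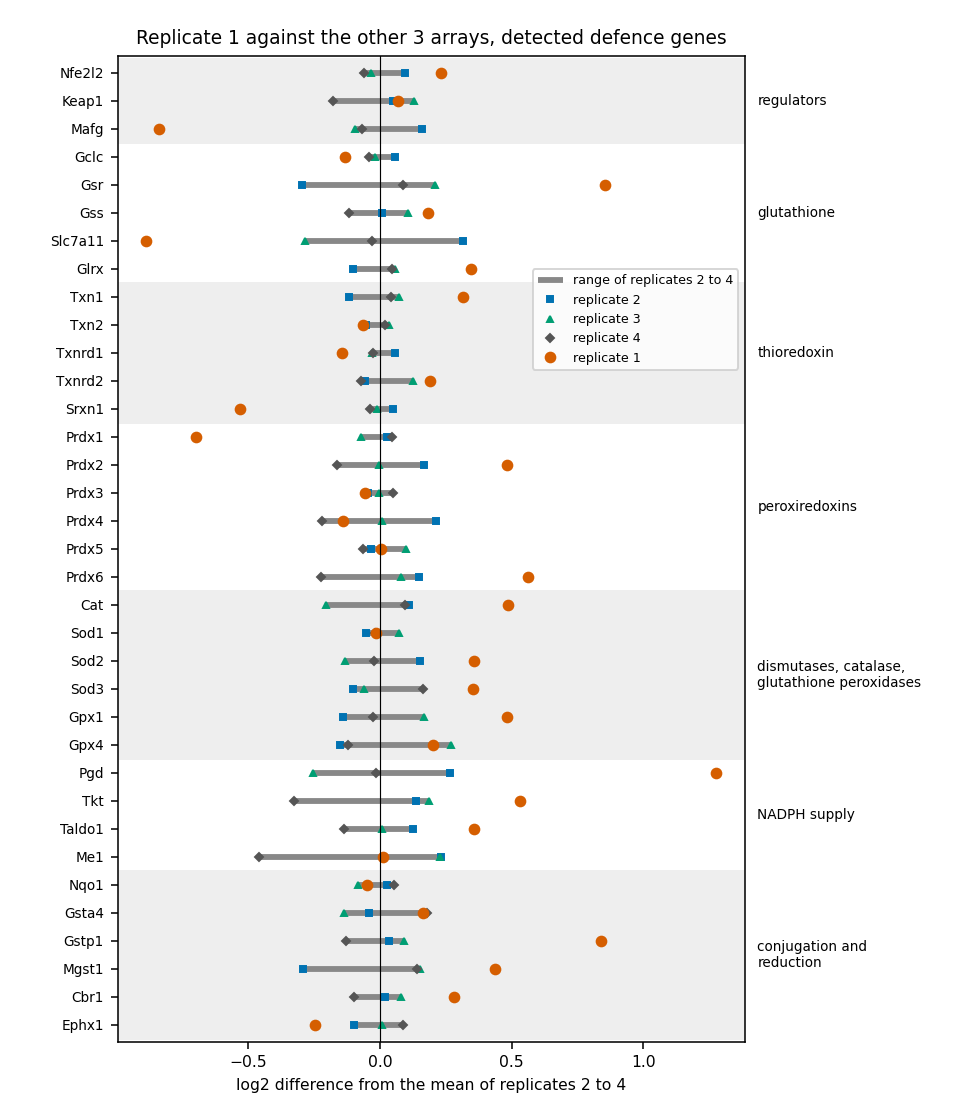
Log2 difference of each array from the mean of replicates 2 to 4 for the 35 detected defence genes, by role. The grey bar spans replicates 2 to 4 and the large point is replicate 1, which lies right of the bar in 18 genes, left of it in 9 and inside it in the other 8. Prdx2, right of the bar, falls left of it under normexp.

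By role, replicate 1 was above the range of the others in 4 members and below it in 0 among the dismutases, catalase and glutathione peroxidases. For the NADPH enzymes the counts were 3 and 0 (2 and 0 under normexp), and for the thioredoxin system 2 and 3. Among the peroxiredoxins they were 2 and 2, and 1 and 5 under normexp. Over all detected genes replicate 1 was above the range in 42.3% and below it in 32.8%. These shares were not counted under normexp. With so few members a role, these are descriptions with no test. The members below by over 0.5 on the log2 scale were Slc7a11, Mafg, Prdx1 and Srxn1, a set picked after its values were seen. Those above by over 0.5 were Pgd, Gsr, Gstp1, Prdx6 and Tkt, picked in the same way. This list depends on the processing. Under normexp Gsr (0.31) and Prdx6 (0.14) fell under 0.5, and Mgst1 (0.70) and Gss (0.52) passed it. Under quantile normalization Prdx6 (0.47) and Tkt (0.35) fell under it. Differences of this size are not particular to the members. Over all detected genes the log2 difference of replicate 1 had quartiles of -0.27 and 0.38 and ran from -2.55 to 2.77. The printed promoters of Prdx1 and Gstp1 both hold a core with an overlapping AP-1 match, and the genes lay on opposite sides. Of the 9 detected members with a core, replicate 1 was above the other arrays in 3 and below in 3. Of the 23 detected members with a window and no core in it, it was above in 12 and below in 6. A core outside the window would not have been found. These stand beside the same 42.3% and 32.8% of all detected genes. Shares over all genes with or without a core were not counted, and a relation of the core to the direction was not tested.

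**Figure D4:**
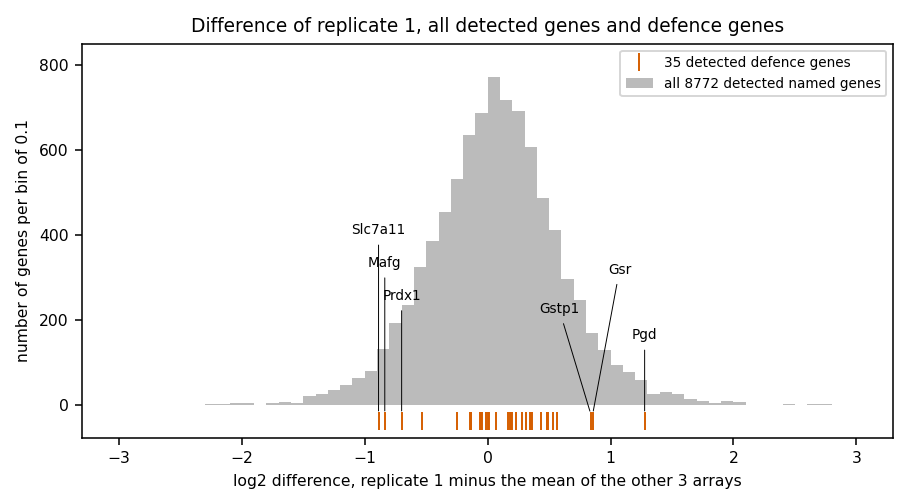
Distribution over the 8772 detected named genes of the log2 difference of replicate 1 from the mean of replicates 2 to 4, as the number of genes per bin, with the 35 detected defence genes marked as ticks and 6 of them named. The members spread from -0.89 (Slc7a11) to 1.28 (Pgd), inside the range of all genes, which runs from -2.55 to 2.77.

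Between arrays the SD of the log2 level had a median of 0.21 over the members, with quartiles of 0.13 and 0.31, and of 0.24 over all detected genes, with quartiles of 0.15 and 0.36. It ran from 0.05 to 0.67. Over replicates 2 to 4 alone, the median SD of the same genes was 0.13 and that of all detected genes 0.15. By role the median SD was highest for the NADPH enzymes, at 0.34, and lowest for the thioredoxin system, at 0.13. By Dixon's ratio, the gap of the most distant array divided by the whole range, 2 of 35 members (5.71%) passed the critical value of 0.829, Srxn1 and Prdx1, both with replicate 1 low, beside 8.41% of all detected genes.

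For 10 probes of 8 detected members the array carries 10 spots each, which gives a spread within an array to set beside that between replicates. The median SD between array means was 0.22 for these probes and the median SD between single spots 0.13, both on the log2 scale. These are unlike measures, because a mean over spots varies less than a single spot. In 3 of the 10 probes no spot of replicate 1 overlapped any spot of the other arrays: both of Gstp1 and that of Prdx1. The same share over all probes with 10 spots was not counted, so this is no trait of the members. By array levels, replicate 1 was above the range of the others in 42.3% of all detected genes and below it in 32.8%. Log2 levels of the Prdx1 spots ran from 4.94 to 5.48 on replicate 1 and from 5.57 to 6.11 elsewhere. One Gstp1 probe ran from 3.74 to 4.41 on replicate 1 and from 2.92 to 3.38 on the others, again as log2 levels. In the other Gstp1 probe the same log2 ranges were 3.37 to 3.96 and 2.46 to 3.00. For Prdx5 the SD between array means was 0.46 times that between single spots, and its spots overlapped between arrays. The Sod3 probe and 1 Gstp1 probe each have 1 of their 10 spots in the dim area of replicate 4.

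**Figure D5:**
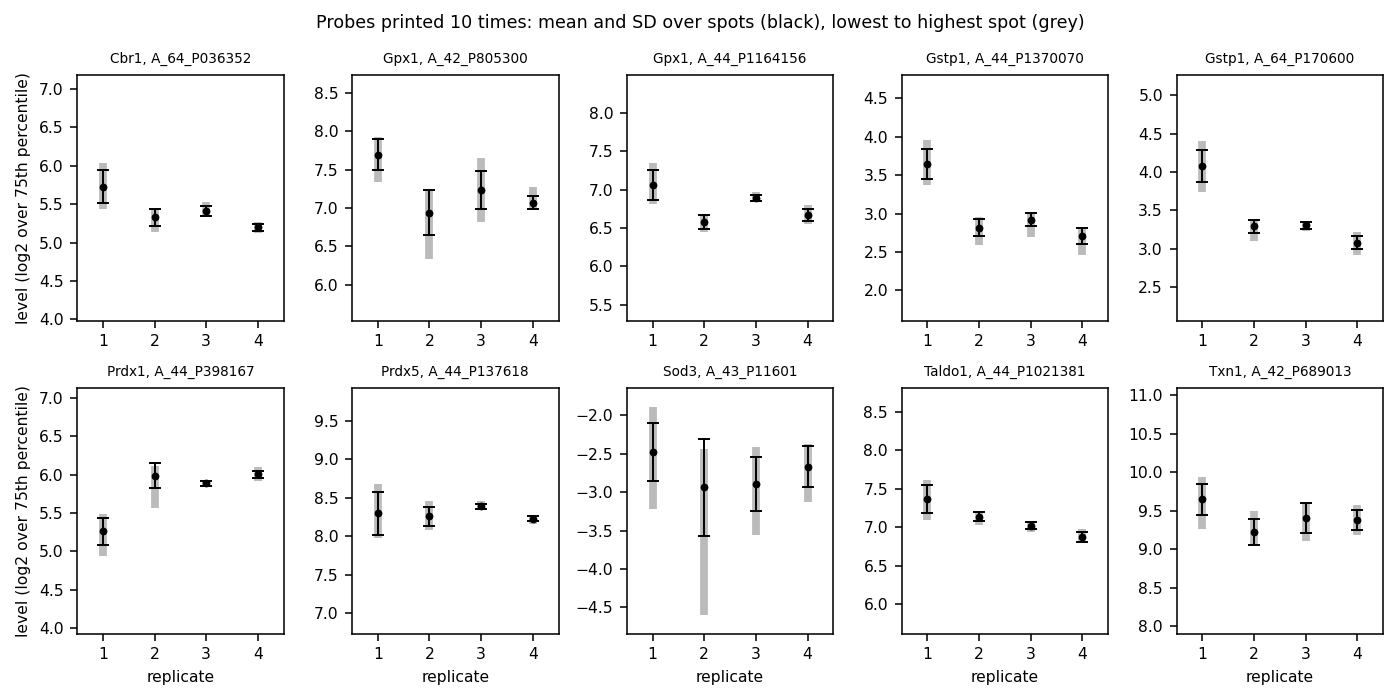
Log2 level by replicate for the 10 probes of defence genes that have 10 spots on each array, with the mean and SD over spots in black and the lowest to highest spot in grey. The spots of replicate 1 are clear of all other spots in the 2 Gstp1 probes (above) and in the Prdx1 probe (below), and overlap them in the other 7 probes.

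Other genes of the pathway came from a list of 91, of which 83 were on the array. Of these, 64 were detected (77.1%, beside 53.1% of all named genes) and 9 were above background on no array. Their median SD between arrays was 0.26 on the log2 scale, and the median log2 difference of replicate 1 from the others was 0.23. Replicate 1 was above the other arrays in 39 of the 64, beside 42.3% of all detected genes, and below them in 14, beside 32.8%. With the 75th percentile taken over detected probes these counts were 30 and 18. The shares of all detected genes were not counted with that percentile. The 11 macrophage markers had a median log2 difference of 0.19 on replicate 1, and the 13 detected markers of other cell types one of 0.01, with replicate 1 above the other arrays in 4 and below in 4. The lowest 75th percentile of signal was also that of replicate 1. The part of cell make-up and of array brightness in the differences of the defence genes was not tested.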

How the data were processed

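Total RNA of 4 biological replicates of 1 group was measured on one-colour Agilent arrays. They share 1 slide, so no batch of slide or scan can be tested. Signals were extracted with Agilent Feature Extraction 11.0.1.1, per the submitters' processing notes. Each deposited file gives linear intensity per spot: the processed signal, corrected for background by the software and not scaled between arrays, and the medians of foreground and background. The deposited files also give other values used as flags, well above background and outlier, for each spot. No spot was saturated.

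Control spots (4259 of 62976 on each array) and outlier spots (440 to 1206) were left out. The spots of a probe were averaged as log2 values after subtracting the 75th percentile of the array. This gave 45598 probes, and 318 with no usable spot on some array were dropped. Unversioned accessions were matched to RefSeq symbols of GRCr8, which named 21109 probes of 16506 genes. The other 24489 probes have no name here and entered no count. The files' own coordinates were not used. Promoter sequence came from RefSeq, build GRCr8, for 37 of the 40 members, with no window used for Gsr, Prdx6 and Sod3. Protein sequences were not used here.

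With 1 group no test between groups exists. Detection was also tested with limma 3.58.1 (R 4.3.3), one-sided against the 95th percentile of 308 negative control spots, with Benjamini-Hochberg adjustment over all probes and a threshold of 0.05. Differences between arrays are descriptions. The precision is limited by the number of arrays. The detection test and the summaries were tested on simulated data. The normexp alternative ran on median signals in place of means, with an offset of 50.

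The members and lists were chosen with earlier results of these data known. All members are named. Other pathway genes are named where above background on no array, or where an array stood apart by Dixon's ratio or by over 1 log2 unit, at most 4 a role in alphabetical order, plus Hmox1. Computation also used Python 3.11.15 and matplotlib 3.10.9.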

Additional observations from a re-analysis of the deposited data

Results flagged for a closer look

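In 2 of 35 detected members (5.71%) and 6 of 64 other detected pathway genes 1 array stood apart from the other 3. The Dixon ratio was then above the critical value of 0.829. Chance gives about 1 in 20 such groups, and 8.41% of all detected genes passed, so the members passed no more often than genes in general. The array was replicate 1 in each of the 8. It was also the array farthest from the mean in 54.7% of all detected genes, and its share among all genes that passed was not counted. Srxn1, sulfiredoxin (ratio 0.854), and Prdx1, a peroxiredoxin (0.844), were lower there. Hmox1, heme oxygenase (0.910), Cul3, the ligase subunit that works with KEAP1 (0.853), Slc3a2, the partner chain of the cystine transporter (0.847), and Txndc9, a thioredoxin domain protein (0.829), were lower there too. Msrb1, a methionine sulfoxide reductase (0.904), and Gstt2, a glutathione transferase (0.838), were higher. Under normexp the level of Msrb1 on replicate 1 was within the range of the others. Hmox1 and Gstt2 also passed under normexp, quantile normalization and scaling over detected probes. Under each of these Prdx1 (0.683 to 0.752), Cul3 (0.736 to 0.791) and Msrb1 (0.242 to 0.725) did not pass. Slc3a2 did not under normexp (0.428) and quantile normalization (0.756), Srxn1 under quantile normalization (0.759), and Txndc9 under quantile normalization (0.805) and scaling over detected probes (0.812). The cause was not tested.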

How the results depend on the processing

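Of 95 values recomputed under the alternatives, 90 kept their call under loose margins. A median log2 difference kept it when it moved by less than 0.21, the median SD of the members. That margin is wider than the median difference of replicate 1 itself, 0.19, so keeping the call says little there. Counts and the median SD had margins of their own. The other 5 concern small counts. Of 385 recomputed member levels, 69 moved by the gene's SD or more. These were all 35 with the percentile over detected probes, 30 under normexp and 4 with the first probe. The percentile over detected probes shifts every level on an array by the same amount. Those 35 thus show a change of the zero point and say nothing of single genes. The number of detected members with an array over 1 log2 unit away, 1 (Pgd), was 0 under normexp and 4 with no filter on dim probes. The number above background on no array, 2, was 0 under the positive-and-significant flag, and it is not defined for the limma call. With 1 replicate left out in turn, 35 to 37 members were detected, 2 to 3 were above background on no array, 64 to 67 other pathway genes were detected, and 0 to 2 members had an array over 1 log2 unit away. That count was 0 without replicate 1 and 2 without replicate 3, when Slc7a11 joined Pgd. The median SD ran from 0.13 (without replicate 1) to 0.22, and the median log2 difference of replicate 1 from 0.15 to 0.24. That median was 0.06 under normexp (all detected genes 0.03), 0.11 under quantile normalization (0.02) and 0.10 with the percentile over detected probes (-0.02). The last scaling moved the median difference of all detected genes on replicate 4 from -0.07 to 0.04, and that of the members to 0.02. The members with replicate 1 above and below the others, 18 and 9, were 16 and 13 under normexp. Of these, 15 and 8 were the same genes. The shares of all detected genes with replicate 1 above or below were not counted under normexp. The count of members passing Dixon's ratio was 2 under every scaling, but with different genes: Srxn1 and Me1 under normexp, Gstp1 and Nfe2l2 under quantile normalization, and Srxn1 and Gstp1 with the percentile over detected probes. No paired analysis was possible because there is 1 group. Signal over background limits the calls for dim probes such as those of Gclm, Gpx3 and Gstm1.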

Other observations

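Genes for making selenoproteins, on which the thioredoxin reductases and several glutathione peroxidases depend, were not among the members. All 7 on the array were detected, beside 53.1% of all named genes, with a median SD between arrays of 0.25 on the log2 scale. Replicate 1 was above the other arrays in 4 of them and below in 0, beside 42.3% and 32.8% of all detected genes. These counts were 6 and 1 under normexp, where the shares of all detected genes were not counted. The median log2 difference of replicate 1 was 0.19 without normexp.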
